A study of Mus musculus with 8 samples.

Results

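Solute carriers (SLC) are the largest group of membrane transporters in mammals, and 95 of their genes are described here in the subcutaneous white fat of mice. The members were chosen by symbol and by level: every gene whose symbol has the form Slc, a family number, the letter a and a member number was taken, provided that its mean over the libraries was at least 1 TPM (a measure of RNA abundance that corrects reads for the length of the gene and the size of the library). Of 239 such genes with a row in the deposited table, 95 met this level, 119 lay above 0 but below it and 25 were listed at 0 in all libraries. The members were selected on their mean over both diets, so their level is a description with no test. The symbol rule also takes 4 genes that encode no transporter: Slc9a3r1 and Slc9a3r2, scaffolds that bind ion exchangers, Slc7a6os, which lies next to Slc7a6, and Slc4a1ap, which encodes kanadaptin. The remaining 91 are transporters or members of transporter families.

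The tissue came from wild-type C57BL/6J mice that either ate ad libitum (AL) or were kept on calorie restriction (CR) for 6 months, between 3 and 9 months of age. The labels list 8 mice, 4 for each diet, while values of 7 libraries were analysed. Of these, 3 are AL libraries (numbered AL2, AL3, AL4) and 4 are CR libraries (CR1, CR2, CR3, CR4), and values are listed in that order. No transgene, deletion or drug is named for either diet, and the tissue is whole fat, which holds vessels, nerve and immune cells beside adipocytes. Fewer cells of a type and less RNA per cell cannot be told apart in such samples.

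Solute carriers move nutrients, ions and metabolites across membranes by coupling to gradients of sodium, protons or exchanged solutes, without splitting ATP themselves. In white fat they bring in glucose and amino acids, move lactate and other monocarboxylates, load organelles with metals and nucleotide sugars, and, in the SLC25 family, exchange metabolites across the inner mitochondrial membrane. Members of one family often differ in their substrate and in the membrane they sit in, so they are grouped below by what the family carries.

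Depth and composition set the limits of what follows. Whole reads recovered from the TPM steps came to between 4147004 and 8896615 per library in rows with a gene length, and the members had a median of 265 reads, with 25 members under 50 reads in at least 1 library. Rows with the smallest false discovery rates (FDR) of the authors' deposited table, those under 0.05, were not analysed here, and 107 of 346 Slc genes that GENCODE M21 annotates were without a row, including Slc2a1, Slc2a4, Slc16a1, Slc25a5, Slc25a20 and Slc27a1. The rows analysed held 49.03 to 53.1% of the TPM of an AL library and 42.9 to 45.01% of a CR library. Most genes were lower in CR on the deposited scale, with a median log2 difference of -0.20 over 10412 tested genes. Differences are given on that scale, after median-ratio scaling, or on both. Median-ratio scaling divides a library by its typical gene and leaves a median of -0.01. Of the adipocyte markers, 6 of 9 had a row, and they summed to between 65545 and 80106 TPM in AL and between 50534 and 57925 TPM in CR. Most of this was Cfd (adipsin), at 51723 to 62269 TPM in AL and 37496 to 42836 TPM in CR. Adipoq and Plin1 were also lower in all CR libraries, whereas Lep, Pparg and Cidec overlapped between the diets. All 5 endothelial markers had a row, with sums of 321 to 365 TPM in AL and 248 to 306 TPM in CR, and 2 of 3 Schwann cell markers summed to between 185 and 386 TPM in AL and between 74.0 and 189 TPM in CR. The 5 lymphocyte markers summed to at most 10.6 TPM and the 6 epithelial markers to at most 9.83 TPM, while macrophage, fibroblast and erythroid markers had no row. The part of these cell types in the differences below was not tested.

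A few carriers held much of the TPM of the 95 members. Slc genes without a row, such as Slc25a5 and Slc2a4, could not be ranked beside them. The 95 genes together amounted to between 4075 and 5600 TPM in a library (the lowest in CR4, the highest in AL4), or 0.930 to 1.09% of the TPM in the rows of an AL library and 0.940 to 1.08% of a CR library. Slc1a5, the sodium-dependent exchanger of glutamine and other neutral amino acids, was the most abundant member. It had 1743, 1714 and 2499.7 TPM in AL and 1704, 1559, 1572 and 1333 TPM in CR. It alone made up 32.7 to 44.6% of the members' TPM. All 4 CR values lay below the lowest AL value, and the groups overlapped after median-ratio scaling (log2 difference -0.35, adjusted p = 0.138 in limma, and -0.13 after scaling). Slc25a4, which exchanges ADP for ATP across the inner mitochondrial membrane, was second, with 895, 395 and 455 TPM in AL and 524, 529.5, 541 and 484 TPM in CR. AL2 stood far above the other 6 libraries. Slc7a10, a carrier of small neutral amino acids such as serine and known as a surface marker of white adipocytes, came next with 322, 496 and 462 TPM in AL and 378, 348, 354 and 267 TPM in CR, and the groups overlapped.

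Below these came Slc48a1, which moves heme out of endosomes and lysosomes, with 209, 230.3 and 267 TPM in AL and 265, 264, 248 and 253 TPM in CR. Slc3a2, the heavy chain (CD98) that carries several amino acid exchangers to the cell surface, had 100.7, 125 and 147 TPM in AL and 143, 142, 153 and 121 TPM in CR. Slc22a3, an organic cation transporter that takes up catecholamines outside neurons, had 90.8, 106 and 109.8 TPM in AL and 121, 101.3, 122 and 91.6 TPM in CR. These 6 genes were all the members with a mean of at least 100 TPM, whereas 53 had a mean from 10 to 100 TPM and 36 a mean from 1 to 10 TPM. Next in order were Slc25a23, a calcium-regulated carrier of ATP-magnesium and phosphate, the scaffold Slc9a3r2, Slc25a22, a mitochondrial glutamate carrier, and Slc50a1, a sugar transporter. Their means with SD over the 3 AL libraries were 94.2 ± 7.35, 82.1 ± 17.3, 73.1 ± 10.9 and 72.6 ± 7.70 TPM, and over the 4 CR libraries 99.9 ± 13.7, 68.9 ± 3.51, 63.4 ± 3.32 and 53.2 ± 2.47 TPM. Among these 4, the AL and CR libraries stayed apart for Slc50a1 alone.

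**Figure D1:**
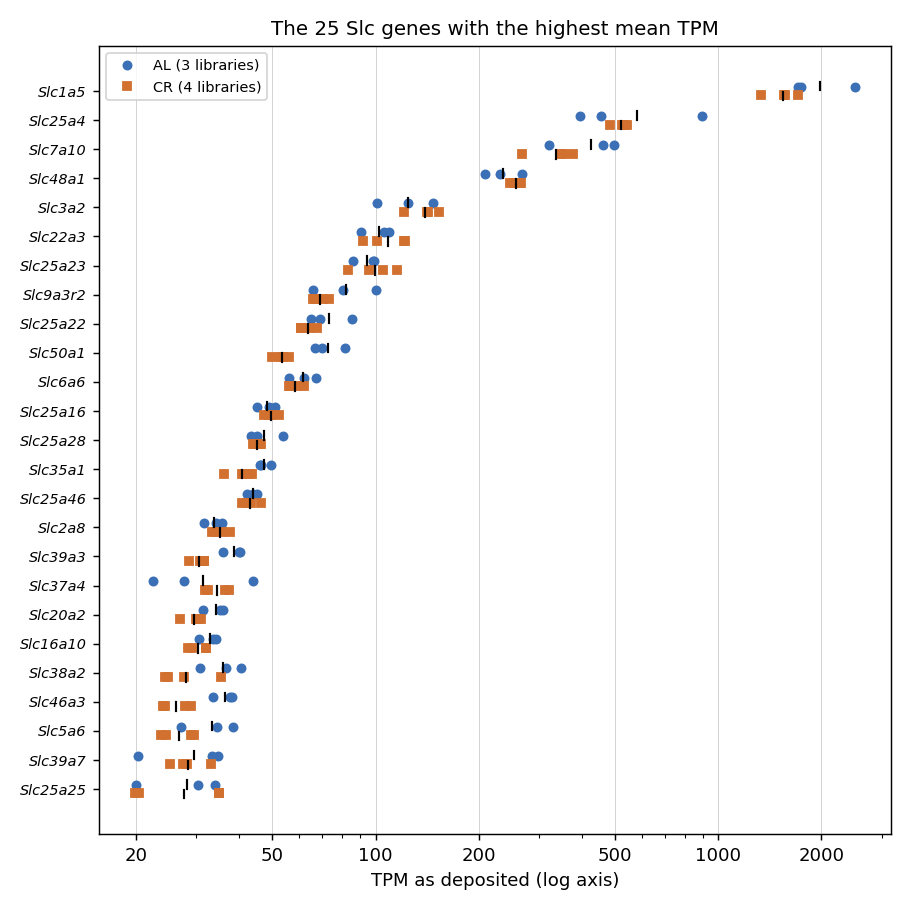
TPM as deposited (log axis) of the 25 members with the highest mean. Circles mark the 3 AL libraries, squares the 4 CR libraries and a vertical bar each group mean. Slc1a5 stands above the other 24, the AL2 value of Slc25a4 lies apart from the other AL values, and the groups of Slc50a1 do not overlap.

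Calorie restriction was set against ad libitum feeding for every gene. On the deposited scale 12 of the 95 members fell in CR and 0 rose at an adjusted p under 0.05. Over all tested genes 16.4% were called lower and 0.461% higher, so the share of members that fell was close to the background. At an unadjusted p under 0.05 on that scale 31 members were lower and 1 was higher, against 31.6% and 2.10% over all genes. After median-ratio scaling 0 members passed an adjusted p of 0.05 (over all genes 0.0384% passed, all higher), and the smallest adjusted p among them was 0.0763. Rows with an FDR under 0.05 in the authors' deposited table were not analysed, so genes able to pass may be missing from these counts. At a looser adjusted p of 0.1 after scaling, 8 members were higher and 2 lower, against 7.50% higher and 4.45% lower of all tested genes. After scaling 18 members above 0 and 12 below it had an unadjusted p under 0.05, against 15.2% and 12.8% of all genes. The AL and CR libraries did not overlap for 27 members that were lower in CR and 3 that were higher on the deposited scale (29.9% and 2.17% of all genes), and for 15 lower and 15 higher after scaling (12.3% and 13.3% of all genes). The counts of SLC genes were read against these shares, and none of them is given as particular to the family. Among the members analysed the changes were small, and after scaling 92 of the 95 stayed within 0.5 of 0 in log2 and 55 within 0.25.

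These counts changed when 1 library was left out, which also leaves fewer libraries to test with. The 12 members that fell became 3 without AL3, 2 without CR1 and 2 without CR2, and 8 to 12 without any other library. Over all tested genes the 1751 calls became 598 without AL3, 696 without CR1 and 611 without CR2. Without AL2, 1 member, Slc37a4, rose in CR (log2 difference 0.46, adjusted p = 0.0457), and without AL4 the 1 member that rose was Slc46a1 (0.42, adjusted p = 0.0382). Over all alternatives on the deposited scale, the adjusted p ranged from 0.0457 to 0.968 for Slc37a4 and from 0.0382 to 0.473 for Slc46a1. At an adjusted p of 0.1 after scaling, the 8 higher and 2 lower members became 3 and 0 without AL2, 12 and 3 without AL4, and 0 and 0 without AL3 or without any 1 of the CR libraries. They also became 0 and 0 without a filter on low genes and without a variance trend, 12 and 8 among genes with a mean of at least 5 TPM, 5 and 2 under quantile normalization, and 11 and 0 under equal totals. The 12 members lower at an unadjusted p became 6 without AL3.

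**Figure D2:**
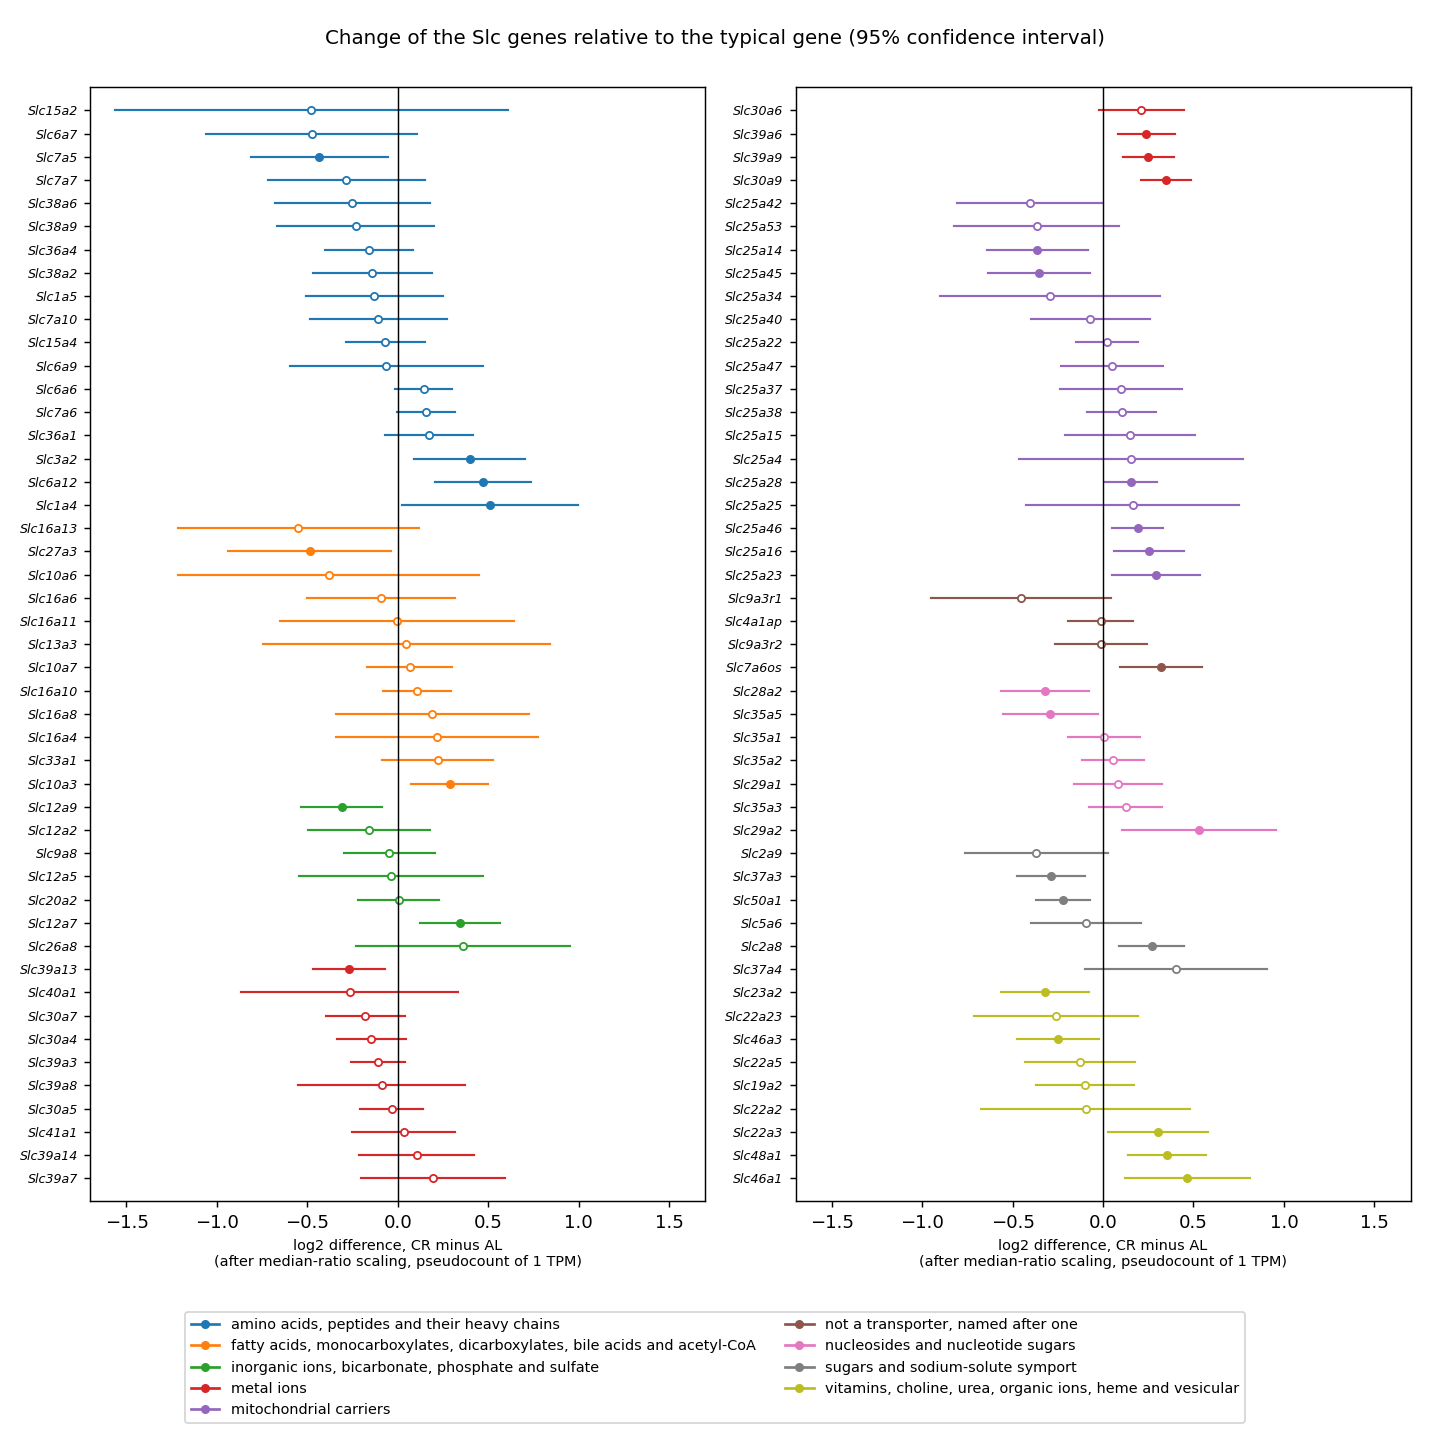
Log2 difference, CR minus AL, of the Slc genes after median-ratio scaling, with its 95% confidence interval, coloured by the family's cargo (filled where the unadjusted p is under 0.05). Most intervals cross 0, and each cargo group holds genes on both sides.

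The members that fell carry unlike cargo. Slc50a1, a SWEET-family sugar transporter found in Golgi and plasma membranes, had 70.02, 81.2 and 66.5 TPM in AL and 53.7, 53.2, 56 and 49.99 TPM in CR. All 4 CR libraries were below all 3 AL libraries, with a log2 difference of -0.44 (95% confidence interval -0.62 to -0.25, adjusted p = 0.0173), and -0.22 after scaling (unadjusted p = 0.00989, adjusted p = 0.0942). It was called in each of the 7 fits that left out 1 library. Slc37a3, of the sugar-phosphate exchanger family, had 23.6, 28 and 21.1 TPM in AL and 16.1, 17.3, 17.5 and 16.3 TPM in CR. It fell by a log2 difference of 0.50 (-0.73 to -0.26, adjusted p = 0.0193), with -0.29 after scaling (adjusted p = 0.0908), and the diets did not overlap on either scale. The call was kept in 5 of 7 such fits.

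Of the vitamin and lysosomal carriers, Slc46a3, a lysosomal relative of the folate transporter, had 37.5, 33.6 and 38.1 TPM in AL and 24.4, 24, 28.9 and 27.8 TPM in CR. It fell by 0.46 in log2 (-0.67 to -0.25, adjusted p = 0.0184) and was called in 6 of 7 fits without 1 library, but its groups overlapped after scaling (-0.25). Slc23a2, the sodium-dependent vitamin C transporter of most tissues, was called in 3 of 7 such fits. It had 17.2, 20.3 and 17.5 TPM in AL and 12.4, 11.1, 15 and 11.4 TPM in CR (log2 difference -0.53, -0.80 to -0.26, adjusted p = 0.0238, and -0.32 after scaling). The highest CR value, in CR3, stayed below the lowest AL value.

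Among nucleoside and nucleotide sugar carriers, Slc28a2, a sodium-coupled importer of purine nucleosides, fell from 11.9, 16.1 and 12 TPM in AL to 8.81, 8.88, 9.81 and 8.11 TPM in CR (log2 difference -0.52, -0.81 to -0.24, adjusted p = 0.0292, and -0.32 after scaling). A near-identical gene, Gm14085, which shares 95.9% of bases over 95.9% of the transcript, had a mean of 0.0220 TPM, and the sources used here do not state how reads matching both were counted, which leaves the counts of Slc28a2 uncertain. Slc35a5, of the Golgi nucleotide sugar family, fell from 10.2, 11.5 and 11.2 TPM to 6.33, 7.45, 7.36 and 9.08 TPM (log2 difference -0.49, adjusted p = 0.0332, and -0.29 after scaling). Slc12a9, an orphan of the cation-chloride cotransporter family, fell from 11.1, 15 and 12.7 TPM to 8.62, 7.98, 8.84 and 9.53 TPM (log2 difference -0.51, adjusted p = 0.0243, and -0.31 after scaling).

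Of the mitochondrial carriers, Slc25a45 fell from 12.7, 12.2 and 11.7 TPM in AL to 8.37, 8.76, 6.45 and 8.72 TPM in CR (log2 difference -0.55, -0.82 to -0.28, adjusted p = 0.0217, and -0.35 after scaling). CR3 was the lowest library. Slc25a14, known as an uncoupling protein of brain, fell from 7.29, 7.63 and 6.12 TPM to 3.75, 4.65, 5.13 and 4.39 TPM (log2 difference -0.55, -0.85 to -0.24, adjusted p = 0.0300, and -0.36 after scaling). The remaining 3 genes that fell, Slc39a3, Slc39a13 and Slc30a4, are zinc transporters and are described with their family. Among the fits that left out 1 library, Slc25a45 was called in 4 of 7, Slc28a2, Slc39a3 and Slc39a13 in 3 of 7, Slc12a9 and Slc25a14 in 2 of 7, and Slc35a5 and Slc30a4 in 1 of 7. All 12 were without overlap between diets on the deposited scale and 11 after scaling, and 10 had an unadjusted p under 0.05 after scaling, the exceptions being Slc39a3 and Slc30a4. In the authors' deposited table the FDR of these 12 ranged from 0.108 to 0.616.

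**Figure D3:**
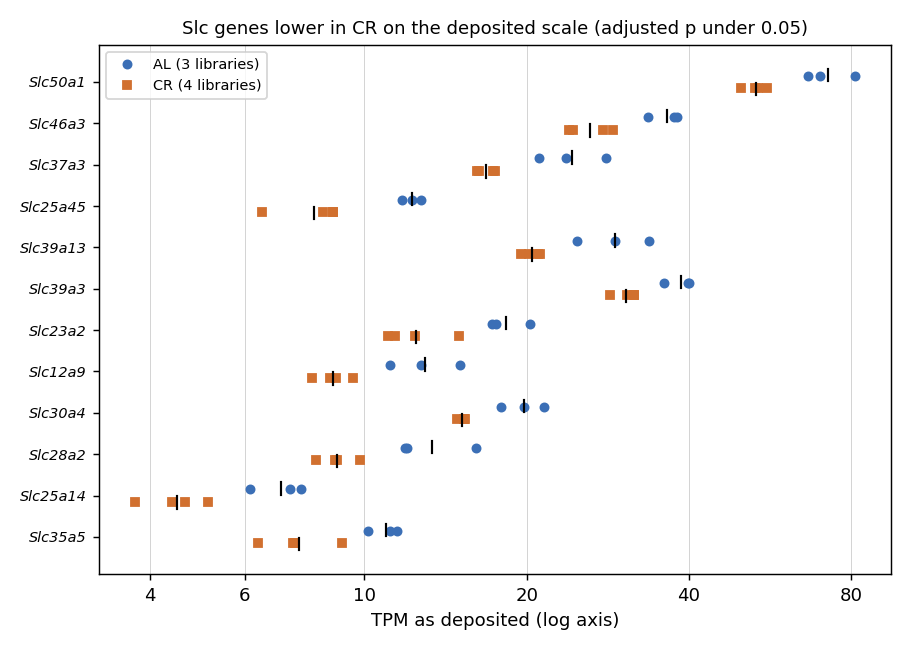
TPM as deposited (log axis) of the 12 Slc genes with an adjusted p under 0.05, in order of that p, with circles for the 3 AL libraries, squares for the 4 CR libraries and a vertical bar for each group mean. In each of the 12 rows every CR square lies left of every AL circle.

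The members that were higher after scaling differed little in TPM, on a scale where most genes were lower in CR. Slc30a9, which is needed for zinc export from mitochondria, had the smallest p, with 22, 23.9 and 23.3 TPM in AL and 25, 25, 25.1 and 26.6 TPM in CR. Every CR library was above every AL library on both scales, with 0.14 in log2 as deposited (adjusted p = 0.183) and 0.35 after scaling (0.21 to 0.49, unadjusted p = 0.00045, adjusted p = 0.0763). In the authors' deposited table it had the smallest FDR of the 95 members, 0.0537. Slc6a12, a betaine and GABA transporter that serves in osmotic regulation, had 4.33, 3.98 and 3.67 TPM in AL and 4.93, 5.44, 4.74 and 5.37 TPM in CR, again without overlap on either scale (0.47 after scaling, 0.21 to 0.74, adjusted p = 0.0780). Slc29a2, an equilibrative nucleoside transporter, shared that pattern, with 2.97, 1.74 and 2.7 TPM in AL and 3.65, 3.08, 3.85 and 3.22 TPM in CR (0.53 after scaling, 0.10 to 0.95, adjusted p = 0.121). Both rest on few reads, 37 to 68 in a library for Slc6a12 and 16 to 45 for Slc29a2.

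The heme transporter Slc48a1 was higher by 0.35 after scaling (0.14 to 0.57, adjusted p = 0.0837), and the log2 difference was 0.14 as deposited. Without AL4 its adjusted p after scaling was 0.0383, and over all alternatives after scaling it ranged from 0.0383 to 0.175. Slc2a8, an intracellular glucose transporter, had 31.6, 34.2 and 35.7 TPM in AL and 35.7, 37.7, 34.3 and 33.3 TPM in CR, which gave 0.27 after scaling (adjusted p = 0.0916). Slc12a7, a potassium-chloride cotransporter, had 17.7, 23.8 and 17.4 TPM in AL and 21.8, 22.3, 21.8 and 19.8 TPM in CR (0.34 after scaling, adjusted p = 0.0902). Slc46a1, the proton-coupled folate transporter, had 11.1, 9.59 and 14.6 TPM in AL and 14.8, 14.1, 13.4 and 14.2 TPM in CR (0.47 after scaling, 0.12 to 0.81, adjusted p = 0.104). On the deposited scale these 4 genes had overlapping groups. Going by the authors' deposited table, an FDR under 0.1 was given to 8 members, and 7 of them had a positive change after scaling here. Rows with an FDR under 0.05 were not analysed, so these 8 lie between 0.05 and 0.1. The matching shares over all tested genes were not worked out, so no lean of the family is read from these counts.

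Zinc transporters gave 12 members. ZnT proteins (SLC30) move zinc out of the cytosol into vesicles or out of the cell, and ZIP proteins (SLC39) move it into the cytosol. The group was picked for a fuller account after its values were seen, because it held both members that fell and members that were higher after scaling. RefSeq promoter windows of mouse build GRCm38.p6 (250 bases before to 50 after the start, 300 in all) were matched by symbol for 79 of the 95 members. Those of the 3 zinc transporters that fell and of Slc30a9 are printed 5′ to 3′ on the gene's strand, because 3 of these genes fell and Slc30a9 did not. Capitals mark the core of the metal response element, to which the zinc sensor MTF1 binds, searched as TGCACNC or TGCGCNC on both strands.
Slc39a3: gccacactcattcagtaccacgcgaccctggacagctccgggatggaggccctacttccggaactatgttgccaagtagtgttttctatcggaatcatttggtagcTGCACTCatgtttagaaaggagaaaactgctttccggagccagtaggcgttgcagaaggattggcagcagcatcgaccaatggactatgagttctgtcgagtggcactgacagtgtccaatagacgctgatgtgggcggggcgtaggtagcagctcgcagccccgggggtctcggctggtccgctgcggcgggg
Slc39a13: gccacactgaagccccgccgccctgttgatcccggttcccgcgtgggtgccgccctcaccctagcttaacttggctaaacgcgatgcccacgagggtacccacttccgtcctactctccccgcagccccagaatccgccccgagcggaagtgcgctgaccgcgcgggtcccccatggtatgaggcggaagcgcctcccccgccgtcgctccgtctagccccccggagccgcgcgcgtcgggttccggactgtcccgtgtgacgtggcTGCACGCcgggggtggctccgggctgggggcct
Slc30a4: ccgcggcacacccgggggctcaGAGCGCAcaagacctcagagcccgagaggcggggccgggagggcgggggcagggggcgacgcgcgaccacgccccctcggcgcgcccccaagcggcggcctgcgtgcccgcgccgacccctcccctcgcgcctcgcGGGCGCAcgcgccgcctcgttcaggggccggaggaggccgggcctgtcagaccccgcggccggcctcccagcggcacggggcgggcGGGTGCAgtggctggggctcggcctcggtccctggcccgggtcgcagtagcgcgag
Slc30a9: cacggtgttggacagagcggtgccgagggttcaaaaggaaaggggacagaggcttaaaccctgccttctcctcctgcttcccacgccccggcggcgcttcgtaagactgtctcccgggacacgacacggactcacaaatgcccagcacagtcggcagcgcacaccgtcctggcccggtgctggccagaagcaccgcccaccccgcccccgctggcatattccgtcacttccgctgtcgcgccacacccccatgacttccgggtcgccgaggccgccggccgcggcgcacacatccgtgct
These windows lie at chr10:81037266-81037565 (minus strand), chr2:91070266-91070565 (minus strand), chr2:122702614-122702913 (minus strand) and chr5:67306705-67307004 (plus strand). They hold 1, 1, 3 and 0 core matches in that order. Among the zinc transporter windows not printed, that of Slc30a7, a gene lower in CR without overlap, holds 0. Those of Slc30a6, Slc39a7 and Slc39a9 also hold 0, that of Slc30a5 holds 1, and those of Slc39a8 hold 0 and 1. Whether the matches go with the change by diet was not tested. The core is common, being present in 25.7% of 32851 promoter windows of all genes, in 32 of 115 windows of the members and in 5 of 11 windows of the zinc transporters, and a match describes letters and not a bound site.

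Slc39a3, a ZIP importer, had 35.9, 39.9 and 40.1 TPM in AL and 28.5, 30.7, 31.7 and 31.7 TPM in CR and fell by 0.32 in log2 (-0.49 to -0.16, adjusted p = 0.0236). Its difference after scaling was -0.11 (-0.26 to 0.04). Slc39a13, a ZIP of intracellular vesicles that is known for its role in connective tissue, had 24.8, 33.7 and 29.2 TPM in AL and 21.2, 20.2, 19.6 and 21 TPM in CR and fell by 0.48 (-0.72 to -0.24, adjusted p = 0.0219, and -0.27 after scaling). Slc30a4, a ZnT of endosomes and secretory vesicles known for zinc supply to milk, had 21.5, 19.8 and 17.9 TPM in AL and 15.3, 14.8, 15.3 and 15.3 TPM in CR and fell by 0.35 (-0.54 to -0.17, adjusted p = 0.0255, and -0.15 after scaling). Each of the 3 was lower in all 4 CR libraries than in any AL library on both scales.

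Of the other zinc transporters, Slc39a9 and Slc39a6 had like TPM in both diets, with means ± SD of 20.04 ± 1.37 and 17.8 ± 0.664 TPM in AL and 20.6 ± 0.536 and 18.2 ± 0.962 TPM in CR, and were higher after scaling by 0.25 and 0.24 (adjusted p = 0.0783 and 0.0916). Slc30a7, a ZnT of the Golgi, was without overlap and lower in CR on both scales. It had 7.73, 9.38 and 7.29 TPM in AL and 5.73, 5.69, 6.43 and 6.29 TPM in CR. It did not pass (-0.37 as deposited, adjusted p = 0.0606, and -0.18 after scaling). Slc30a5 and Slc30a6, whose products pair in the early secretory pathway, had log2 differences of -0.03 and 0.21 after scaling. Slc39a14, a ZIP that also carries iron and manganese, had 5.64, 6.87 and 4.35 TPM in AL and 4.97, 4.96, 6.04 and 4.85 TPM in CR, with -0.08 as deposited and 0.11 after scaling. Slc39a8, of like cargo, had 4.16, 3.12 and 2.29 TPM and 2.38, 2.04, 2.39 and 3.14 TPM. Slc39a7, the ZIP of the endoplasmic reticulum, had 20.3, 33.4 and 34.8 TPM and 27.5, 25.1, 33.1 and 28.1 TPM, and 80.7% of its exon bases are shared with Gm20427 on the same strand, so its counts are uncertain. Mt1, the metallothionein that stores zinc, fell from 382, 352 and 498 TPM in AL to 256, 302, 237 and 237 TPM in CR (-0.66, adjusted p = 0.0190, and -0.44 after scaling, where its groups overlapped). Of the remaining metal carriers, the iron exporter Slc40a1 had 3.91, 2.99 and 3.45 TPM in AL and 3.70, 2.77, 1.61 and 1.56 TPM in CR, and Slc41a1, a magnesium transporter, had a log2 difference of 0.03 after scaling. Of all 14 metal ion genes 3 fell, and after scaling an unadjusted p under 0.05 was reached by 3 that were higher and 1 that was lower. This count and those of the classes that follow stand beside the shares over all tested genes, 16.4% lower as deposited and 15.2% higher and 12.8% lower at an unadjusted p after scaling.

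**Figure D4:**
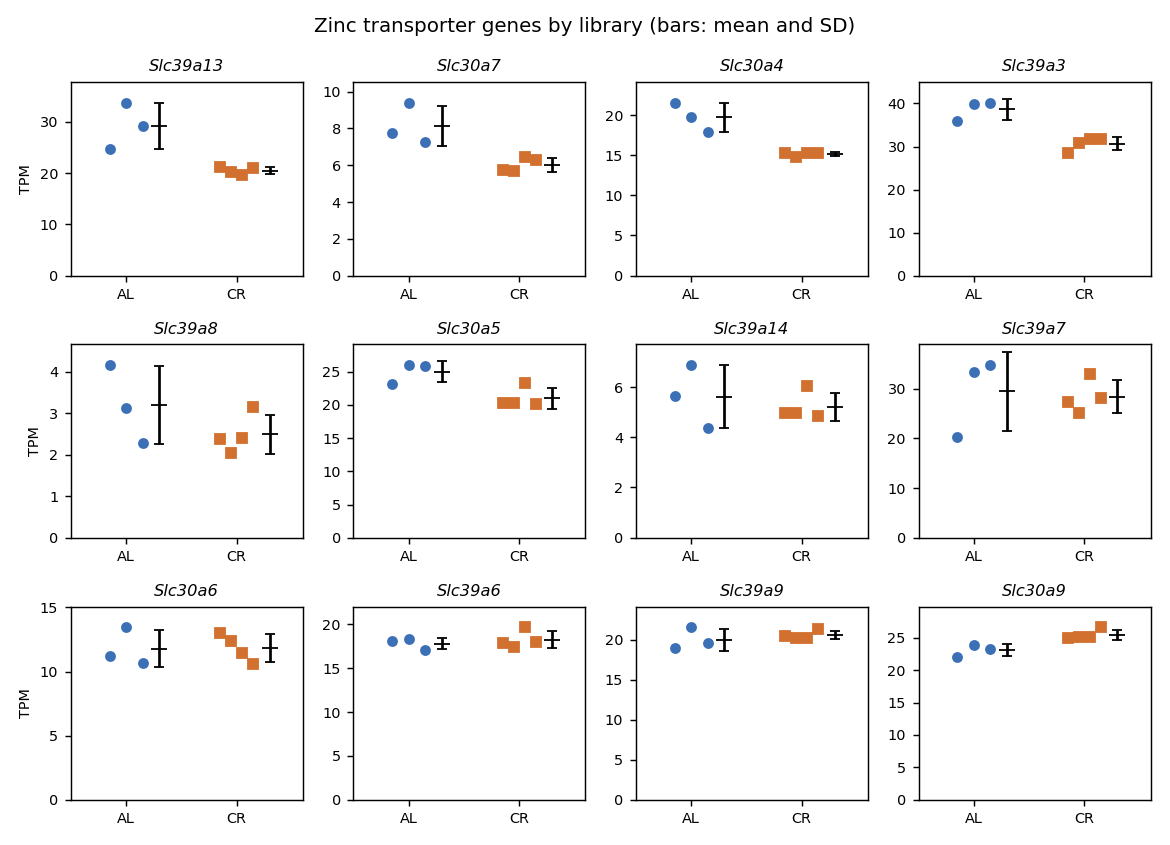
TPM of the 12 zinc transporter genes by library, ordered by their change after median-ratio scaling, with circles for the 3 AL libraries, squares for the 4 CR libraries and black bars for the mean and SD of each group. Slc39a13, Slc30a7, Slc30a4 and Slc39a3 have all CR squares below all AL circles, and Slc30a9 has all of them above.

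Amino acid carriers formed the largest class, with 18 genes, of which 0 fell or rose on the deposited scale. After scaling 3 were higher and 1 was lower at an unadjusted p under 0.05, and the class median was -0.12. Slc3a2, the common heavy chain, differed by 0.40 after scaling (0.09 to 0.71, adjusted p = 0.113), while Slc7a5, one of the light chains it carries, had 3.50, 5.31 and 5.02 TPM in AL and 2.46, 2.31, 2.58 and 3.34 TPM in CR. Slc7a5 had a deposited log2 difference of -0.60 (adjusted p = 0.0525) and -0.43 after scaling (adjusted p = 0.142), so the heavy chain and this partner lay on opposite sides of 0. The other light chains among the members, Slc7a6, Slc7a7 and Slc7a10, had 0.16, -0.28 and -0.11 after scaling. Slc1a4, a neutral amino acid exchanger related to Slc1a5, had 3.43, 3.34 and 6.17 TPM in AL and 6.23, 6.04, 4.73 and 5.11 TPM in CR. Its difference after scaling was 0.51 (0.02 to 0.99). Slc38a2, the sodium-coupled glutamine and alanine importer that is known to respond to amino acid shortage, had 40.4, 36.7 and 30.7 TPM in AL. In CR it had 24.4, 27.6, 24.8 and 35.4 TPM, and CR4 stood above the other CR libraries. Its difference was -0.35 as deposited (adjusted p = 0.130) and -0.14 after scaling. Slc6a6, the taurine transporter, differed by 0.14 after scaling. On that scale Slc36a1 and Slc36a4, which pass amino acids across lysosomal and plasma membranes, differed by 0.17 and -0.16. Summed, the class held 2368 to 3297 TPM in AL and 1906 to 2401 TPM in CR, most of it from Slc1a5.

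Mitochondrial carriers numbered 17, of which 2 fell, and after scaling 4 genes above 0 and 2 genes below it had an unadjusted p under 0.05, with a class median of 0.098. The 4 that were higher were Slc25a23 (0.29), Slc25a16 (0.25), Slc25a46, a protein of the outer membrane (0.19), and Slc25a28, a mitochondrial iron importer (0.15). Their adjusted p were 0.127, 0.108, 0.103 and 0.157. After scaling Slc25a37, the other mitochondrial iron importer, and Slc25a38, a glycine importer for heme synthesis, each differed by 0.10. The ornithine carrier Slc25a15 differed by 0.15 on that scale. Slc25a42, which brings coenzyme A into the matrix, had 18.5, 20.1 and 14.8 TPM in AL and 10.4, 8.35, 12 and 15.1 TPM in CR (-0.61, adjusted p = 0.0587, and -0.40 after scaling). Slc25a25, a relative of Slc25a23, took 2 levels that did not follow diet, with 30.3, 34.1 and 20.03 TPM in AL and 35, 20.4, 34.8 and 19.9 TPM in CR.

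The high AL2 value of Slc25a4 coincided with a high value of a muscle gene. Myh1, a myosin of fast skeletal muscle and the 1 muscle marker of 5 with a row, was at 64.2 TPM in AL2 and between 0.325 and 9.80 TPM in the other 6 libraries. Slc37a4, which brings glucose 6-phosphate into the endoplasmic reticulum, was also highest in AL2, with 43.8, 22.4 and 27.7 TPM in AL and 31.9, 37.5, 32.5 and 36.4 TPM in CR. Without AL2 its log2 difference was 0.46 (adjusted p = 0.0457), against 0.19 with all libraries. The part of muscle RNA in these values was not tested. The log2 difference of Slc25a4 was -0.07 as deposited, 0.29 without AL2 and 0.15 after scaling.

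Glucose, sugar and sodium-solute carriers gave 6 members. Slc50a1 and Slc37a3 fell, and Slc2a8 was higher after scaling. The urate and hexose carrier Slc2a9 had 3.53, 3.48 and 2.67 TPM in AL and 2.11, 2.26, 1.78 and 1.58 TPM in CR without overlap. Its difference was -0.53 as deposited (adjusted p = 0.0760) and -0.37 after scaling. Slc5a6, a sodium-coupled importer of biotin and pantothenate, had 27.1, 34.5 and 38.3 TPM and 28.9, 24.5, 29.6 and 23.6 TPM. A processed pseudogene, Gm6157, matches 55.2% of its transcript at 97.8% identity and had 2.83 TPM, so its reads may be divided. The class median was -0.16 after scaling.

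Carriers of fatty acids, monocarboxylates, bile acids and acetyl-CoA gave 13 members, of which 0 fell or rose. Slc16a10, an aromatic amino acid transporter of the monocarboxylate family, was the most abundant, with 30.6, 33.6 and 34.3 TPM in AL and 32.1, 32, 28.4 and 29.2 TPM in CR (-0.11 as deposited and 0.11 after scaling). Slc33a1, which brings acetyl-CoA into the endoplasmic reticulum, had 23.3, 23.9 and 33.1 TPM and 24.6, 26.2, 27.6 and 28 TPM. Slc10a3, a bile acid transporter relative, differed by 0.29 after scaling (0.07 to 0.50, adjusted p = 0.106). Slc27a3, an acyl-CoA synthetase of the fatty acid transport family, had 8.91, 10.3 and 6.05 TPM in AL and 5.96, 5.52, 3.92 and 4.04 TPM in CR, with -0.68 as deposited (adjusted p = 0.0544) and -0.49 after scaling.

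In the remaining classes, the 7 inorganic ion genes held 1 that fell, Slc12a9. Slc20a2, a phosphate importer, had 36, 31.3 and 35.2 TPM in AL and 30.3, 29.9, 30.9 and 26.9 TPM in CR and 0.01 after scaling. Slc12a2, a sodium-potassium-chloride cotransporter, had 21.5, 16.6 and 15.5 TPM and 15.1, 12.5, 15.1 and 11.8 TPM. Its difference was -0.36 as deposited (adjusted p = 0.104) and -0.16 after scaling. Of the 7 nucleoside and nucleotide sugar genes, the Golgi carriers Slc35a1 for CMP-sialic acid, Slc35a2 for UDP-galactose and Slc35a3 for UDP-N-acetylglucosamine differed by 0.0032, 0.06 and 0.12 after scaling, and Slc29a1 by 0.08. Of 9 genes for vitamins, organic ions and heme, 2 fell, and after scaling 3 were higher (Slc48a1, Slc46a1 and Slc22a3) and 2 lower (Slc23a2 and Slc46a3) at an unadjusted p under 0.05. The carnitine importer Slc22a5 had 26.7, 36.7 and 28.2 TPM in AL and 22.7, 20.05, 29.8 and 23.3 TPM in CR. Of the 4 genes that are not transporters, Slc7a6os had 0.32 after scaling (adjusted p = 0.0982), Slc9a3r1 -0.45, Slc9a3r2 -0.01 and Slc4a1ap -0.01.

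The members differed widely in how steady they were. Slc15a2, a peptide importer, ranged 14.5-fold between its lowest library (0.332 TPM in CR2) and its highest (4.81 TPM in AL4). Slc16a13 ranged 6.27-fold and Slc10a6 4.45-fold, whereas Slc25a46 and Slc39a9 ranged 1.14-fold. The median coefficient of variation of the members was 15.03% in AL and 9.89% in CR. Just inside the level that chose the members were Slc16a8, Slc26a8 and Slc12a5, with means of 1.02, 1.04 and 1.09 TPM, and just outside were Slc38a3, Slc4a1 and Slc7a4, with 0.988, 0.891 and 0.869 TPM.

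Other membrane transport genes were read in the same fit, from named lists or, for whole families, by symbol among the genes with a row. Of 15 tested ATP-binding cassette (ABC) genes, which do split ATP, 4 fell and 0 rose, against 16.4% lower and 0.461% higher of all tested genes. After scaling 4 were lower and 1 was higher at an unadjusted p under 0.05, with a median of 0.068. Abcd2, a peroxisomal importer of very long chain fatty acids, was the most abundant of them with 411, 458 and 519.8 TPM in AL and 341, 329, 351 and 318 TPM in CR (-0.46, adjusted p = 0.0166, and -0.24 after scaling). Of 7 tested major facilitator and Spns genes, 3 fell, and after scaling 2 were lower and 2 higher at an unadjusted p under 0.05, with a median of 0.024. The lysosomal Mfsd1 was among the 3, with 96.2, 104 and 88.4 TPM in AL and 58, 62.6, 70.5 and 65.3 TPM in CR (-0.58, adjusted p = 0.0148, and -0.36 after scaling). Among the chaperones of monocarboxylate carriers, Bsg (basigin) had 765, 687 and 709 TPM in AL and 799.7, 835, 834 and 812 TPM in CR, with every CR library above every AL library. Its difference was 0.19 as deposited (adjusted p = 0.0658) and 0.41 after scaling (0.23 to 0.58, adjusted p = 0.0763). In contrast, Emb (embigin) fell from 6.70, 7.93 and 5.71 TPM to 4.82, 4.63, 4.34 and 4.07 TPM (-0.50, adjusted p = 0.0376, and -0.31 after scaling). Of 3 tested exporters 1 fell, the phosphate exporter Xpr1 (-0.38, adjusted p = 0.0491). After scaling its difference was -0.18 and its groups overlapped. Of 4 tested sodium pump genes 0 fell or rose. Of the 12 organic anion transporter (Slco) genes with a row, 0 reached the level for testing.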

How the data were processed

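RNA of subcutaneous white fat from AL and CR mice was sequenced. Per the file headers, the authors deposited TPM values by gene and library, with 1 adjusted p-value (FDR) a gene. The labels' protocols name a directional kit, with depletion of ribosomal RNA as well as purification of poly-A RNA. The submitters' processing notes list STAR 2.7.10b, featureCounts 2.0.3, edgeR 3.38.4, SAMtools 1.17 and FastQC 0.12.1 with build GRCm39. What annotation and strand setting were used, and which test gave the FDR, is not given in the sources used here. Reads of overlapping and antisense genes therefore cannot be told apart. Overlaps of at least 50 exon bases in GENCODE M21 (build GRCm38) touch 25 members, and of more than 20% of exon bases 4 of them (Slc39a7, Slc33a1, Slc6a9 and Slc16a6).

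A column's name gave its diet, and no column was tied to 1 labelled mouse. Genes with a mean of at least 1 TPM over the 7 libraries (10412, all 95 members included) were fitted as log2(TPM + 1) with limma 3.58.1 (R 4.3.3, statmod 1.5.0 installed), using a variance trend, diet as the only term, two-sided p-values and Benjamini-Hochberg adjustment over all tested genes. "Fell" and "rose" are used at an adjusted p under 0.05 on the deposited scale, and folds on the log2(TPM + 1) scale understate changes of low genes. The fit was repeated after median-ratio scaling, in which the divisor of a library is the median, over tested genes, of its ratio to their geometric mean. It was tested on simulated data. Of 22034 rows judged, 94.5% gave reads within 0.05 of a whole number when TPM times M21 length was divided by the value of 1 read; these reads serve as a measure of depth only. Near-identical transcripts were found with BLAST 2.17.0 (at least 95% identity over at least 100 bases and 25% of the transcript). Promoters are RefSeq's, of build GRCm38.p6.

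The members and gene lists were chosen with earlier results of these data known. Named genes are the 10 with the highest mean, the members called, up to 8 per direction with the largest non-overlapping change after scaling at a mean of at least 5 TPM, the most abundant and the smallest-p gene of each class, a list of known fat transporters, and the 3 nearest the level on each side. Genes outside this rule were picked for naming with their values known. Alternatives were other pseudocounts, filters, scalings and variance moderation, and leaving out each library. The values of 1 member are not reported here, and it is left out of the plot of changes by cargo.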

Additional observations from a re-analysis of the deposited data

Results flagged for a closer look

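Of 70 members examined, 5 had 1 CR library that stood apart from the other 3 by Dixon's criterion for 4 samples, a test that flags about 1 group in 20 by chance. Slc30a9 was at 26.6 TPM in CR4 and between 25.01 and 25.1 TPM in the other CR libraries. Slc30a5 was at 23.3 TPM in CR3 and between 20.1 and 20.3 TPM elsewhere in CR. Slc30a4 was at 14.8 TPM in CR2, against 15.3 TPM in each of the others, so its departure is small. Slc25a45 was at 6.45 TPM in CR3 and between 8.37 and 8.76 TPM elsewhere in CR. Slc39a14 was at 6.04 TPM in CR3 and between 4.85 and 4.97 TPM elsewhere in CR.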

How the results depend on the processing

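No paired analysis was possible because the table's column numbers are not those of the labelled mice. Scaling was the choice that moved most results. The 12 members called lower became 0 under median-ratio scaling, quantile normalization or equal totals over the rows, and 3 with no filter on low genes. Over all tested genes the 1751 calls became 4 under each of these 3 scalings and 742 with no filter. These counts leave out the rows with an authors' FDR under 0.05, which were not analysed. The members' median log2 difference of -0.21 became -0.014, -0.026 and -0.00329 under the 3 scalings in that order. Leaving out 1 library gave 2 to 12 members lower, 0 to 1 higher and 598 to 1437 calls over all genes, and after median-ratio scaling 6 to 14 members lower and 13 to 19 higher at an unadjusted p under 0.05. Calls of single genes on the deposited scale did not depend on the pseudocounts of 0.1, 0.5 and 5 TPM in number, with 12 members lower under each.

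Uncalled differences near 0 changed sign with scaling. Under median-ratio scaling, quantile normalization and equal totals in that order they became 0.11, 0.075 and 0.12 for Slc16a10, 0.11, 0.16 and 0.11 for Slc39a14, 0.19, 0.15 and 0.20 for Slc25a46, and 0.15, 0.12 and 0.16 for Slc25a4. Under median-ratio scaling and equal totals they became 0.022 and 0.033 for Slc25a22, 0.00316 and 0.014 for Slc35a1, and 0.00642 and 0.017 for Slc20a2. The change after median-ratio scaling, whose alternatives were added after seeing the data, reversed with a mean of at least 5 TPM to -0.00114 for Slc25a22, -0.0198 for Slc35a1 and -0.016 for Slc20a2, and with no filter to 0.00361 for Slc9a3r2 and 0.00114 for Slc4a1ap.

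With 1 library left out, the deposited difference ranged from -0.30 to 0.29 for Slc25a4, -0.22 to 0.054 for Slc39a14, -0.055 to 0.00594 for Slc25a46, -0.00867 to 0.078 for Slc25a16 and -0.017 to 0.24 for Slc7a6os. The change after scaling ranged from -0.27 to 0.071 for Slc1a5, -0.094 to 0.066 for Slc20a2, -0.028 to 0.28 for Slc25a15, -0.033 to 0.096 for Slc25a22, -0.033 to 0.30 for Slc25a25, -0.074 to 0.24 for Slc25a37 and -0.12 to 0.54 for Slc25a4. It ranged from -0.077 to 0.012 for Slc30a5, -0.056 to 0.058 for Slc35a1, -0.019 to 0.20 for Slc39a14, -0.024 to 0.35 for Slc39a7, -0.23 to 0.088 for Slc39a8 and -0.044 to 0.14 for Slc41a1. It also ranged from -0.048 to 0.019 for Slc4a1ap, -0.21 to 0.035 for Slc5a6, -0.27 to 0.00566 for Slc7a10 and -0.14 to 0.098 for Slc9a3r2. Depth limits the 25 members with under 50 reads in some library, whose median standard error after scaling was 0.23 in log2, against 0.10 for the other 70.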

Other observations

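Ucp1, the uncoupling protein of thermogenic fat and a relative of the mitochondrial carriers without an Slc symbol, was at 6.20, 0.401 and 0.663 TPM in AL and 2.79, 8.51, 6.78 and 7.16 TPM in CR. The groups overlapped through AL2, and the deposited log2 difference of 1.43 did not pass (0.106 to 2.76, adjusted p = 0.123). After scaling it was 1.56 (adjusted p = 0.134). Of 4 thermogenic markers, Ucp1 and Ppargc1a had a row. Ppargc1a also overlapped, with 8.05, 5.57 and 10.6 TPM in AL and 6.85, 7.49, 10.1 and 8.07 TPM in CR. Slc25a4, the relative of Ucp1 that exchanges ADP for ATP, was highest in AL2, whereas Ucp1 was higher in CR2, CR3 and CR4 than in AL2. Of the 8 aquaporins with a row, Aqp2 alone had a mean of at least 1 TPM. It was at 1.33, 4.39 and 1.40 TPM in AL and 0.947, 0.517, 0.364 and 1.42 TPM in CR.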
